A study of Mus musculus with 6 samples.

Results

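Tenascins and thrombospondins are 2 families of secreted glycoproteins of the extracellular matrix, and the 9 mouse genes that encode them were examined out of the 28293 genes counted in the study. The members were the rows whose GENCODE M21 symbol is Tnr, Tnc, Tnxb or Tnn (tenascins R, C, X and W) or Thbs1, Thbs2, Thbs3, Thbs4 or Comp (the thrombospondins). The members were chosen by family name, with the counts of the 2 genotypes already known and Tnr selected on its far higher level in the knockout. The values of all members in that comparison are therefore given as a description and without a test. Of the 9 genes, 8 had counts and Thbs4 was not analysed here.

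RNA sequencing of polyadenylated RNA was done on 6 libraries of cells labelled as a mouse dermal fibroblast line, 3 wild type (WT) and 3 Lap2alpha KO (KO). LAP2alpha is a soluble isoform of lamina-associated polypeptide 2 and a partner of lamin A/C inside the nucleus. Both genotypes were grown alike, in DMEM with 10% fetal calf serum, and no treatment, age or strain is named in the labels. The labels do not say how the knockout was made, whether it is a clone, or whether the replicates were separate cultures, so the p-values reflect no more than library-to-library spread, which may be technical, and differences between lines cannot be told apart from the loss of LAP2alpha.

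The libraries held 22159339 to 27281473 counts. Tmpo, the gene of all LAP2 isoforms, stood at 249 to 254 CPM (counts scaled to a library total of 1000000) in WT and 122 to 135 CPM in KO. Its count does not separate the alpha isoform. All 8 fibroblast markers examined had reads in every library, with a summed level of 5706 to 6080 CPM in WT and 20729 to 22025 CPM in KO. Most of the KO sum came from Col1a1 (4883 ± 257 CPM) and Col1a2 (10955 ± 184 CPM). Of the 8 markers 7 were higher in KO, and Thy1 was lower (379 ± 16.5 CPM in WT, 238 ± 11.5 CPM in KO). Lum, a dermal proteoglycan, had only 1 to 3 reads in the WT libraries. Of 15081 genes tested across the genome with edgeR, 75.1% were called at an adjusted p under 0.05, 37.7% higher and 37.5% lower in KO. KO and WT libraries did not overlap in CPM for 76.8% of tested genes.

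Tenascins and thrombospondins are matricellular proteins: they sit in the matrix and adjust how cells attach to it, more than they carry load. Tenascins are built as arms of EGF-like and fibronectin type III repeats with a fibrinogen-like end, and are best known from wound edges and tendon (tenascin-C), dermis and other connective tissue (tenascin-X), bone and stem cell niches (tenascin-W) and the perineuronal matrix of the brain (tenascin-R). Thrombospondins 1 and 2 form trimers, carry the type 1 repeats that restrain blood vessel growth and bind the receptors CD36 and CD47, and thrombospondin-1 can activate latent TGF-beta. Thrombospondins 3, 4 and COMP form pentamers that lack these repeats, and COMP helps to organise collagen in cartilage and tendon.

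The sequence upstream of 3 members is shown because they carry the main patterns: Tnr, nearly unread in WT; Thbs2, the most abundant member in KO; and Tnc, which was lower in KO. Each run is the 250 bases before the RefSeq start site (GRCm38.p6), written 5′ to 3′ on the gene's strand, with CG pairs in capitals. Tnr lies at chr1:159523519-159523768 on the plus strand, Tnc at chr4:64047016-64047265 on the minus strand and Thbs2 at chr17:14694263-14694512 on the minus strand.
Tnr: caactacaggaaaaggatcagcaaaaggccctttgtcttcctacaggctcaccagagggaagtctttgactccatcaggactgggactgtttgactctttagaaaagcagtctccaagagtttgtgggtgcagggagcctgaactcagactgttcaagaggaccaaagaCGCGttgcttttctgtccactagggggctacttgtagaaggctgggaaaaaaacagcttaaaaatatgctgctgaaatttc
Tnc: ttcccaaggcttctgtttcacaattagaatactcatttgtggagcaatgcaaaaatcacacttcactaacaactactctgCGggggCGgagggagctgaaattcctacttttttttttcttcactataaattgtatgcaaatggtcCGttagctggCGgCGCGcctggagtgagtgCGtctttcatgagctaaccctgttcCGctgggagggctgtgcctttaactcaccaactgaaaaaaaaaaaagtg
Thbs2: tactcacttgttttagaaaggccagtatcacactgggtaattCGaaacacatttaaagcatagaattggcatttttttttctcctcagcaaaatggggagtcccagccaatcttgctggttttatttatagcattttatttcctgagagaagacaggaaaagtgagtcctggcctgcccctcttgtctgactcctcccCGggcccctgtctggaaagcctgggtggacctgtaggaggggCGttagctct

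The Tnr window held 2 CG pairs, that of Thbs2 held 3 and that of Tnc held 8, where the median of 32536 mouse windows of the same length was 6. RefSeq gives Tnc another start, whose window (chr4:64046937-64047186) overlaps the one shown and held 10 CG pairs. The table covered 7 of the 9 members. Tnxb and Tnn held 4 CG pairs each and Thbs3 held 6. Of the motifs searched on both strands, TATAAA occurs in 12.3% of all windows, CCAAT in 33.8%, GGGCGG in 33.0%, TGANTCA in 6.73% and CANNTG in 66.2%. The Tnr window matched none of the 5. The Thbs2 window held TATAAA once, CCAAT at 2 places and CANNTG once. Tnc held TATAAA once, GGGCGG once and CANNTG at 3 places, or at 2 places before its other start. Among the other members with counts, Tnxb held TGANTCA, the letters of an AP-1 site, and CANNTG once each. Thbs3 held CCAAT once, GGGCGG once and CANNTG once, and Tnn held CCAAT once. These are matches of letters only. GENCODE places the starts of Thbs2 and Tnn at slightly different bases from RefSeq.

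Of the 8 measured members 6 were called higher and 2 lower in KO, beside the 75.1% of all tested genes that were called in either direction, and KO and WT libraries did not overlap for any of the 8, beside 76.8% of tested genes. Nothing is read from these counts, since the set was chosen with the contrast known. Tnr, Tnn and Comp reached the low-count minimum of 0.382 CPM in no WT library and in all 3 KO libraries, so they entered the fit only through the group in which they were higher. The directions of all 8 were kept under every scaling of the libraries tried.

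**Figure D1:**
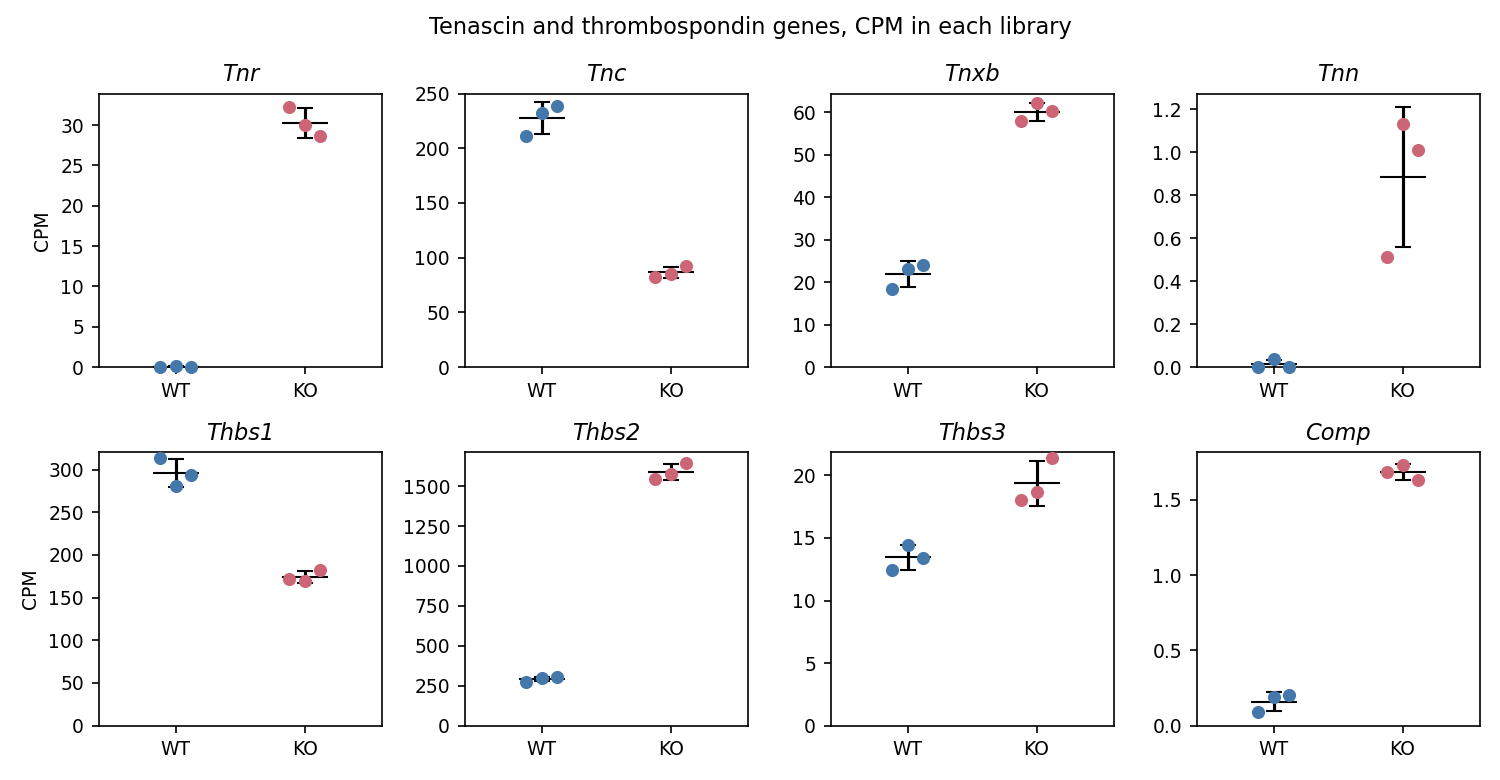
Level in CPM (linear axes starting at 0, a scale for each gene) of the 8 measured members in the 3 WT and 3 KO libraries; dots are libraries, the bar and whiskers are mean and SD. Tnc and Thbs1 sit lower in KO, the other members higher, and the groups do not overlap in any panel.

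Tnr encodes tenascin-R, a glycoprotein of myelinated and perineuronal matrix in the brain. It had 0, 3 and 1 reads in the WT libraries and 881, 795 and 738 reads in the KO libraries. These KO counts come to 32.3, 29.98 and 28.6 CPM, close to each other, while every WT library was near 0. The summed counts give a ratio of 557 (95% counting interval 217 to 2044), which like all such intervals here covers counting error only. The fitted log2 fold change, KO over WT, was 8.92 (SE 0.23), and 10.11 without WT replicate 2, which held most of the WT reads. Every SE here is the absolute log2 fold change divided by the square root of the edgeR F statistic. With 4 WT reads, that of Tnr is much narrower than the counting interval and understates the uncertainty. Tnr (ENSMUSG00000015829) spans chr1:159523769-159931729 on the plus strand, 407961 bases with 5 annotated transcripts, and Gm10530, a noncoding model within its span on the same strand, had 1 read in all 6 libraries together.

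Because Tnr is typical of oligodendrocytes and some neurons, markers of those cells were read beside it. Of 7 oligodendrocyte markers 3 had counts; Olig1, Olig2, Sox10 and Mag were not analysed here. The summed level of the 3 was 4.33 to 4.51 CPM in WT and 30.4 to 32.3 CPM in KO. Most of it came from Cnp, a phosphodiesterase of myelin, at 25.3 ± 0.687 CPM in KO, with Cnp and Mbp both called higher, whereas the myelin surface protein Mog had at most 7 reads in any library. Of 7 neuronal markers 6 had counts, with 15.2 to 17.8 CPM in WT and 19.4 to 21.4 CPM in KO; Map2 fell and Syt1 rose, and Snap25, Stmn2 and Gad1 had at most 3 reads in any library. In the list of other glia, summed at 0 to 0.122 CPM in WT and 2.24 to 3.47 CPM in KO, Aldh1l1 had 0 reads in WT and 51 to 79 reads in KO and made up most of the sum. The other 3 glial genes with counts were barely read in KO: Gfap had 5 to 11 reads, S100b 2 to 5 and Ngfr at most 1; Foxd3 was not analysed here. Whether these cells or genes have a part in the Tnr level was not tested. In bulk RNA, fewer cells of a type and less RNA per cell cannot be told apart.

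Tnc encodes tenascin-C, the tenascin of wound edges and tumour stroma. It stood at 211, 233 and 239 CPM in WT and at 82.8, 84.8 and 92.0 CPM in KO. The lowest WT library was more than 2 times the highest KO library. The mean was 2.63-fold lower in KO (log2 fold change −1.47, SE 0.07). Tnc (ENSMUSG00000028364) lies at chr4:63959785-64047015 on the minus strand, and 8030451A03Rik, an opposite-strand transcript over 2.26% of its exonic bases, had 7 to 10 reads in WT and 2 to 3 in KO.

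Tnxb encodes tenascin-X, which binds collagen fibrils and whose loss causes a form of Ehlers-Danlos syndrome in people. It stood at 18.4, 23.1 and 24.0 CPM in WT and at 57.8, 62.1 and 60.3 CPM in KO. WT replicate 1 was the lowest of its group, and all KO libraries were well above it and the other two. The mean was 2.75-fold higher in KO (log2 fold change 1.38, SE 0.09). Tnxb (ENSMUSG00000033327, chr17:34670535-34719815, plus strand) shares 6.41% of its 50-base transcript stretches with Tnxa, so some of its reads cannot be placed with certainty. Tnxa itself had 13 to 22 reads in WT and 47 to 58 in KO, a mean CPM 2.73-fold higher.

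Tnn encodes tenascin-W, a tenascin of bone, teeth and stem cell niches. It had 0, 1 and 0 reads in WT and 14, 30 and 26 reads in KO. The KO level was thus low too, at 0.513, 1.13 and 1.01 CPM, with KO replicate 1 the lowest, and no KO library overlapped the WT libraries. The summed counts give a ratio of 64.5 with a wide counting interval of 11.2 to 2586. The fitted log2 fold change was 5.51 (SE 0.75), 7.46 without WT replicate 2, which held the only WT read, and 4.77 in limma-voom. With 1 WT read this SE too understates the uncertainty. With a minimum of 1 CPM in 3 libraries Tnn is not tested at all. It lies on the same chromosome as Tnr, at chr1:160085029-160153580 on the minus strand.

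Thbs1 encodes thrombospondin-1, an inhibitor of angiogenesis and an activator of latent TGF-beta. It stood at 313, 281 and 294 CPM in WT and at 172, 169 and 183 CPM in KO. The mean was 1.70-fold lower in KO (log2 fold change −0.84, SE 0.06), a smaller difference than that of Tnc. Thbs2 encodes thrombospondin-2, its close trimeric relative, which regulates collagen fibril shape in skin. It went the other way, with 276, 298 and 302 CPM in WT and 1544, 1574 and 1645 CPM in KO. The mean was 5.43-fold higher in KO (log2 fold change 2.37, SE 0.06). In 126270 reads over the KO group, Thbs2 was the most deeply counted member, and its CV between KO libraries was 3.28%. Thbs1 (ENSMUSG00000040152) lies at chr2:118111876-118127133 on the plus strand and Thbs2 (ENSMUSG00000023885) at chr17:14665500-14694235 on the minus strand. Thbs2 shared no 50-base transcript stretch with another gene. Gm29233, on the opposite strand over 3.4% of the exonic bases of Thbs1, had at most 2 reads in any library.

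Of the pentameric thrombospondins, Thbs3 differed least among all measured members. It stood at 12.5, 14.5 and 13.4 CPM in WT and at 18.0, 18.7 and 21.4 CPM in KO, 1.44-fold higher in the mean (log2 fold change 0.45, SE 0.09). Its exons overlap those of Mtx1, a mitochondrial import gene on the opposite strand, over 6.59% of their length (chr3:89215180-89226837, plus strand), and Mtx1 was lower in KO. Comp encodes cartilage oligomeric matrix protein. It had 2, 5 and 5 reads in WT and 46, 46 and 42 reads in KO, which is 0.160 ± 0.0612 CPM in WT and 1.68 ± 0.0524 CPM in KO. The log2 fold change was 3.25 (SE 0.30), and the level stayed low in both groups. Resting on 12 WT reads, this SE is also likely too small. Comp (ENSMUSG00000031849) lies at chr8:70373558-70382066 on the plus strand.

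Since Comp belongs to cartilage and tendon, markers of those tissues were read beside it. Of 7 such markers 6 had counts, with a summed level of 63.6 to 75.1 CPM in WT and 117 to 128 CPM in KO. Most of that sum came from Sox9 alone, at 60.7 ± 6.43 CPM in WT and 101 ± 4.78 CPM in KO. The transcription factor genes Sox9 and Mkx and the cartilage collagen Col2a1 were called higher, while the tendon regulator Scx had 4 to 6 reads in every library and Tnmd at most 5; Acan was not analysed here. Their part in the Comp level was not tested. The summed markers of the remaining cell types were low: keratinocytes 6.82 to 8.53 CPM in WT and 4.90 to 6.49 CPM in KO, endothelium at most 1.94 and 4.53 CPM, immune cells 0.677 to 0.689 and 0.550 to 1.36 CPM, and muscle 0.587 to 0.866 and 3.17 to 3.38 CPM.

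Levels were compared between members only per length, as CPM per kilobase of exonic sequence. In WT the order was Thbs1 (48.7 ± 2.68), Thbs2 (41.7 ± 2.02), Tnc (29.3 ± 1.87), Thbs3 (2.79 ± 0.208), Tnxb (1.79 ± 0.249), Comp (0.0541 ± 0.0206), Tnr (0.00398 ± 0.00445) and Tnn (0.00216 ± 0.00374; SD, n = 3). Neighbours in this order did not overlap between libraries, apart from Tnr and Tnn. In KO the order was Thbs2 (227 ± 7.44), Thbs1 (28.7 ± 1.20), Tnc (11.1 ± 0.624), Tnxb (4.92 ± 0.175), Thbs3 (4.02 ± 0.373), Tnr (2.36 ± 0.144), Comp (0.567 ± 0.0177) and Tnn (0.152 ± 0.0563), and no neighbours overlapped. The longest transcript as length kept both orders, but Thbs1 and Thbs2 then overlapped in WT (50.6 ± 2.79 and 49.6 ± 2.40), and so did Tnxb and Thbs3 in KO.

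Against all tested genes, Thbs2 was at percentile 89.5 of CPM per kilobase in WT and 98.1 in KO, and Tnc at percentile 85.6 in WT and 69.0 in KO. Tnr was at percentile 0.285 in WT and 32.8 in KO, so it was a gene of modest level in KO and not an abundant one. Comp and Tnn were low in both groups, at percentiles 2.79 and 0.166 in WT and 13.0 and 3.52 in KO.

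The make-up of each family differed between the genotypes. Among the tenascins, Tnc took 94.2 ± 0.441% of the summed CPM per kilobase in WT and 60.0 ± 1.55% in KO. Tnxb took 5.74 ± 0.426% in WT and 26.5 ± 0.868% in KO, and Tnr took 12.7 ± 1.18% in KO. The tenascin sum was 31.1 ± 2.12 CPM per kilobase in WT and 18.6 ± 0.595 in KO, lower in KO in spite of the higher Tnr, Tnxb and Tnn. Among the measured thrombospondins, Thbs1 and Thbs2 took 52.2 ± 2.53% and 44.7 ± 2.28% in WT and 11.04 ± 0.194% and 87.2 ± 0.226% in KO. Their sum was 93.3 ± 1.29 CPM per kilobase in WT and 260.1 ± 8.88 in KO.

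**Figure D2:**
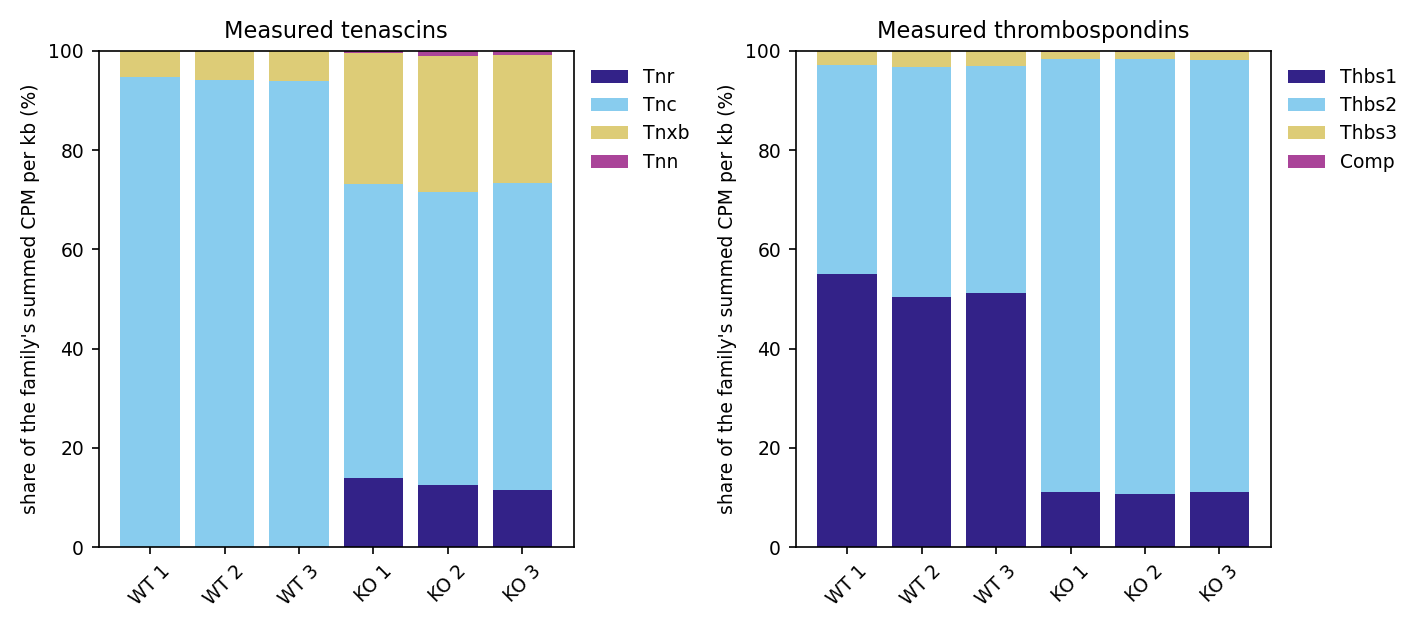
Share (%) of the summed CPM per kilobase of exonic sequence that each member takes among the measured tenascins (left) and thrombospondins (right), as stacked bars, 1 for each library. Tnc takes 94.2% of the tenascins in WT and 60.0% in KO on average, and Thbs2 44.7% and 87.2% of the thrombospondins.

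Ratios within a library do not depend on how libraries are scaled. The ratio of Thbs2 to Thbs1 per length was 0.764, 0.920 and 0.893 in WT and 7.80, 8.08 and 7.81 in KO. The ratio of Tnc to Tnxb was 18.1, 15.8 and 15.6 in WT and 2.25, 2.15 and 2.40 in KO. Each ratio varied little within a genotype compared with the distance between the genotypes.

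Replicates of the well-counted members were close. The coefficient of variation of the 5 members above the low-count minimum in WT was 4.83% (Thbs2) to 13.9% (Tnxb) there. In KO it was 3.28% (Thbs2) to 9.30% (Thbs3) for those 5 members and Tnr. Comp (42 to 46 KO reads) was at 3.11% and Tnn (14 to 30 KO reads) at 37.0%. Such small counts cannot show how close the replicates were.

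The cell surface receptors of these proteins went both ways. Of 28 listed receptors 20 were tested, and 8 rose and 10 fell, beside 75.1% called among all genes. The 8 include Itga8, which entered the fit only through KO. The median log2 fold change was −0.06, against 0.01 over all tested genes. Itgb3, the beta-3 integrin subunit that pairs with alpha-v to bind thrombospondin and tenascin-C, rose from 4.06 ± 0.675 to 27.1 ± 1.58 CPM (edgeR adjusted p = 1.3e-08), and Vldlr, a lipoprotein receptor that binds thrombospondin-1, rose from 4.45 ± 0.171 to 19.96 ± 1.30 CPM (1.2e-08). Itga3, an integrin alpha subunit, fell from 178 ± 13.2 to 52.4 ± 3.10 CPM (5.5e-09). Lrp8, the relative of Vldlr, fell from 88.5 ± 0.0403 to 45.8 ± 0.715 CPM (2.5e-08), and Calr, which partners Lrp1 in a thrombospondin-1 signal, fell with a log2 fold change of −1.18 (1.3e-08).

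Some receptors were looked at after their values were seen, for their close tie to the members. Cd47 rose from 60.8 ± 0.990 to 126.5 ± 11.6 CPM (edgeR adjusted p = 3.5e-07). Itga8, an integrin subunit that binds tenascin-C and tenascin-W, had 1 to 2 reads in the WT libraries and 106 to 135 in KO. It was under the low-count minimum of 0.382 CPM in every WT library, so it entered the fit only through KO. Cd36, the receptor of the type 1 repeats, and Itga9, a tenascin-C receptor subunit, had at most 2 reads in any library. The tenascin-R receptor Cntn1 was not analysed here.

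Of 27 listed matrix proteins that bind the members, 16 were tested; 13 rose and 2 fell, beside 37.7% of all tested genes called higher and 37.5% called lower, and Fn1, fibronectin, did not pass. Among the 13, Col14a1 was under the low-count minimum of 0.382 CPM in WT replicate 1 (0.135 CPM) and so passed the filter only through KO. Without WT replicate 1, 12 genes of the list rose and 3 fell. The median of their log2 fold changes over all 6 libraries was 2.03. Col3a1, the fibrillar collagen of type III, was at 136 ± 11.5 CPM in WT and rose to 1852 ± 57.8 CPM in KO (edgeR adjusted p = 1.4e-10). Matn2, a matrilin, rose from 55.0 ± 2.34 to 318 ± 2.06 CPM (2.2e-10), Postn, periostin, which binds tenascin-C, from 106.9 ± 2.29 to 680.1 ± 44.6 CPM (2.9e-10), and Dcn, the proteoglycan decorin, from 26.8 ± 2.56 to 309 ± 37.5 CPM (1.2e-09). Col1a2 also rose, with a log2 fold change of 2.54 (2.7e-10). The brain lecticans that bind tenascin-R were barely read: Ncan had 1 to 2 reads in WT and 5 to 12 in KO, and Bcan at most 4 in any library. Vcan, the lectican of connective tissue, rose from 168 ± 8.11 to 278 ± 15.3 CPM. The genes of this list that fell were Ltbp1, a latent TGF-beta binding protein, and Col12a1, a fibril-associated collagen. The lecticans, Ltbp1, Col12a1, Col14a1 and Fn1 were chosen after their values were seen.

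Of 22 genes known to control tenascin or thrombospondin expression, 13 rose and 7 fell, beside 75.1% of all tested genes called in either direction and 37.7% called higher. Their median log2 fold change was 0.38. Notch2, a Notch receptor, rose from 42.2 ± 3.87 to 149.6 ± 1.22 CPM (edgeR adjusted p = 5.0e-09). Tgfb2, a ligand of the TGF-beta pathway that induces Tnc and Thbs1, rose from 11.05 ± 1.16 to 41.2 ± 5.49 CPM (1.3e-07), and Smad3, a transducer of that pathway, from 59.1 ± 2.53 to 105.7 ± 2.53 CPM (3.7e-07). Myc, which represses Thbs1 in several cell types, fell from 110.8 ± 1.28 to 50.1 ± 1.76 CPM (1.1e-08). Id1, which also represses Thbs1, fell from 11.1 ± 0.263 to 4.06 ± 0.457 CPM (3.9e-07). Tnc and Thbs1 were themselves lower in KO (log2 fold changes −1.47 and −0.84). The part of these regulators in the levels of the members was not tested. Smad2 and Yap1 did not pass the test (adjusted p = 0.057 and 0.054 in edgeR). Both were picked out after their values were seen, and both were called higher under upper-quartile scaling, library totals alone, a minimum of 1 CPM in 3 libraries and without WT replicate 1, where 15 of the 22 genes were called higher.

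Of 14 proteases that cut members or release them from the matrix 11 were tested; 10 rose and Furin did not pass (edgeR adjusted p = 0.11, picked out after its value was seen). The median log2 fold change was 1.35. Adamts12, which cleaves COMP, rose from 0.836 ± 0.440 to 32.7 ± 1.33 CPM (edgeR adjusted p = 6.6e-09). Mmp9, a gelatinase, rose from 0.251 ± 0.144 to 24.3 ± 1.81 CPM (edgeR adjusted p = 1.5e-09). Mmp9 reached the low-count minimum of 0.382 CPM in WT replicate 1 alone (0.406 CPM). Adamts12 was under it in WT replicate 2 (0.339 CPM), so both genes passed the filter only through KO. Mmp19 rose from 3.99 ± 0.135 to 48.5 ± 2.90 CPM (edgeR adjusted p = 2.9e-10). Mmp14, a membrane-anchored collagenase, rose from 214 ± 4.48 to 625 ± 8.85 CPM (1.9e-09). Adamts4, an aggrecanase, rose from 2.73 ± 0.153 to 17.1 ± 0.961 CPM (5.9e-09). Among all tested genes 37.7% were called higher, and no list was tested as a set.

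**Figure D3:**
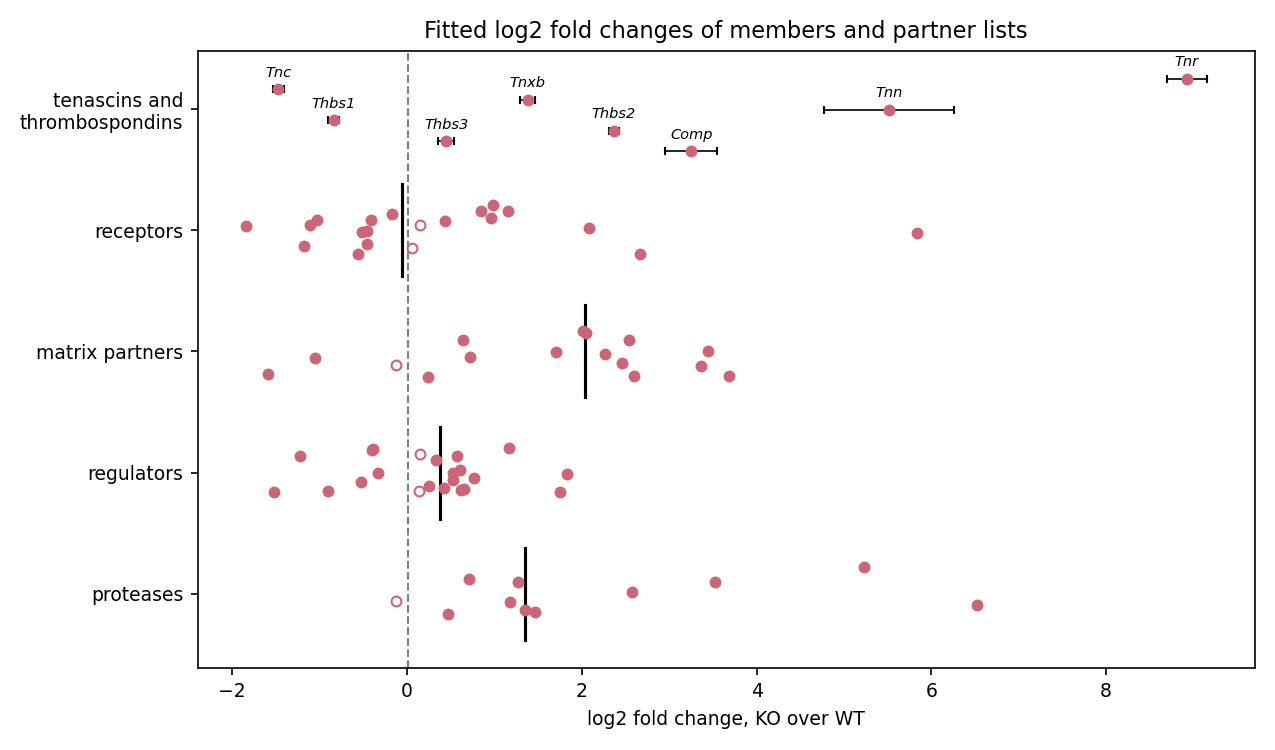
Fitted log2 fold change, KO over WT, of the 8 members (labelled, whiskers are SE) and of the tested genes of 4 partner lists. Filled dots were called in edgeR and open dots were not. Black bars are list medians and the dashed line is the median of all tested genes (0.01). The whiskers of Tnr, Tnn and Comp, little read in WT, understate their uncertainty. Members run from −1.47 (Tnc) to 8.92 (Tnr), receptors lie on both sides, and 13 of 16 matrix partners and 10 of 11 proteases were called higher. Of all tested genes 37.7% were called higher.

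The genes beside Tnr and Tnn on the chromosome had log2 fold changes of −0.35 to 0.73. Over all members, the nearest protein-coding genes on each side are 17 in all, of which 13 were tested, 6 were called higher, 5 lower and 2 not called, beside 75.1% of all genes. Between Tnr and Tnn lies 4930523C07Rik, which rose by 0.73 on the log2 scale from 1.49 ± 0.269 to 2.60 ± 0.467 CPM (edgeR adjusted p = 0.0099). Cop1, a ubiquitin ligase gene before Tnr, rose by 0.18 (0.011), and Mrps14, a mitochondrial ribosomal protein gene after Tnn, fell (−0.35, 6.0e-04).

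Other members had neighbours that were called in the same or the opposite direction. Pappa, a protease of IGF-binding proteins that follows Tnc at 1077158 bases, fell from 1.98 ± 0.119 to 0.391 ± 0.104 CPM (edgeR adjusted p = 6.9e-06). C4b, a complement gene 8564 bases from Tnxb, rose from 0.255 ± 0.115 to 2.49 ± 0.170 CPM (edgeR adjusted p = 2.1e-06). C4b was under the low-count minimum of 0.382 CPM in every WT library, so it entered the fit only through KO. Atf6b, on the other side of Tnxb, fell (log2 fold change −0.55, edgeR adjusted p = 7.7e-06). Wdr27, beside Thbs2, rose by 1.31 (edgeR adjusted p = 0.0023). It was under the same minimum in WT replicate 2 (0.301 CPM) and also passed the filter only through KO. Mtx1, which overlaps Thbs3, fell (−0.50, 2.1e-04), and Muc1 on its other side was not called. Crtc1, which ends 288 bases from Comp, rose by 0.57 (2.5e-05) and Upf1 fell (−0.32, 0.0011). Beside Thbs4, Serinc5 rose by 1.86 (2.1e-09) and Mtx3 was not called. Rasgrp1 and Fsip1, the neighbours of Thbs1, and Smoc2, beside Thbs2, were too low to be tested, and Tnfsf8 was not analysed here.

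**Figure D4:**
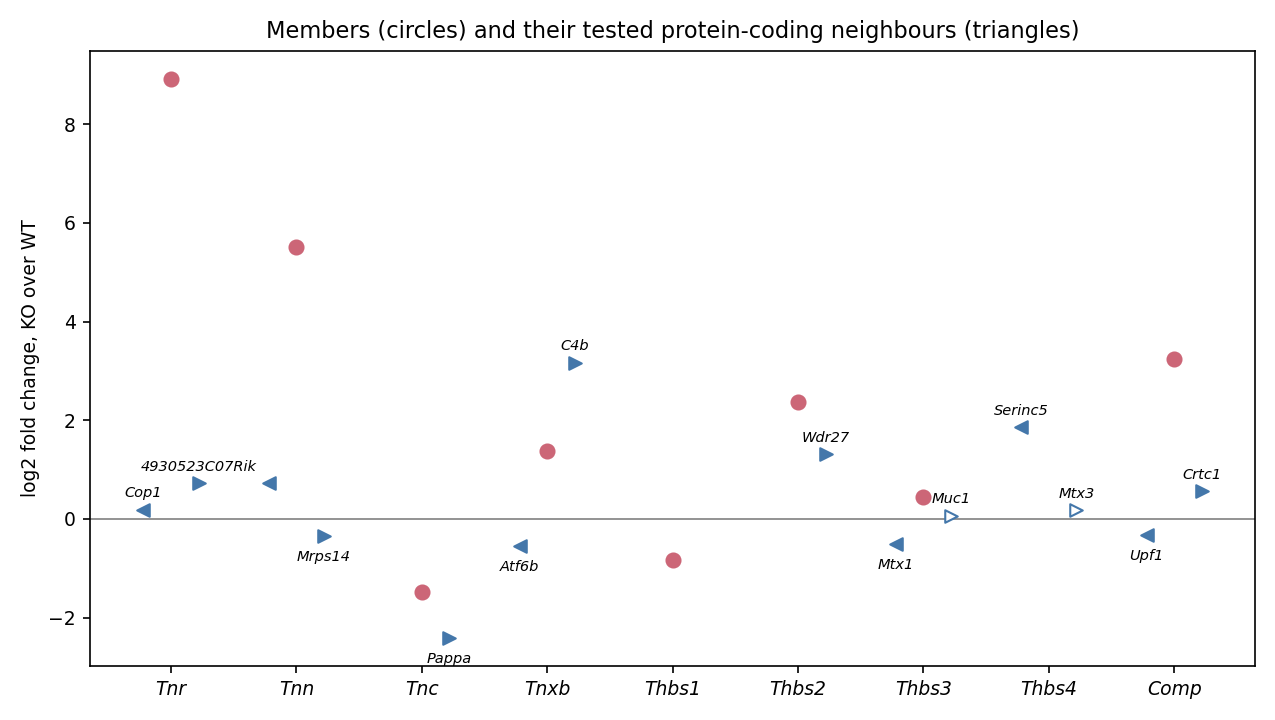
Fitted log2 fold change, KO over WT, of each measured member (circles). Triangles are the nearest protein-coding genes before (left-pointing) and after (right-pointing) each member on the chromosome. They are drawn only where the gene was tested, filled where called in edgeR and open where not. Around Tnr (8.92) and Tnn (5.51) the neighbours lie between −0.35 and 0.73; the triangle left of Tnn is 4930523C07Rik, the same gene as the right triangle of Tnr.

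The genes most like Tnr over the 6 libraries, by Euclidean distance of log2 CPM with a prior count of 2, were Aldh3a1 at a distance of 1.91, Crocc2 at 2.08, Col6a5 at 2.22 and Nsg1 at 2.72. Each was near 0 in every WT library: Nsg1, a neuronal endosome gene, had 4 to 8 reads in WT and 499 to 569 in KO, and Col6a5, a collagen VI chain, had at most 1 read in WT and 341 to 356 in KO. Aldh3a1, an aldehyde dehydrogenase, had 3 to 5 reads in WT and 1066 to 1134 in KO, and Crocc2, a ciliary rootlet gene, 2 to 5 and 812 to 873. The distance mainly reflects the gap between the 2 genotypes.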

How the data were processed

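The authors deposited raw counts per Ensembl gene, 1 file per library; the submitters' processing notes name STAR 2.7.10b and GRCm38. Per the labels, polyadenylated RNA was selected and a directional kit used. Not given in the sources used here: the counting program, strand setting and handling of multi-mapped reads. Of 28293 identifiers, 28230 were found in GENCODE M21, which gave symbols, positions and exonic lengths. Promoter sequences are from RefSeq (GRCm38.p6).

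KO was compared with WT over all genes in edgeR 4.0.16 (R 4.3.3; TMM, filterByExpr, quasi-likelihood test, Benjamini-Hochberg adjustment over all genes tested), and a gene is called at an adjusted p under 0.05. Each SE of a log2 fold change is its absolute value divided by the square root of the F statistic of that test. Such an SE is too small where a group is nearly unread. Ratios of small counts have exact (Clopper-Pearson) 95% intervals. The fit was tested on simulated data (14823 genes) with means and dispersions taken from these libraries. At each fold, 66 of the genes set to differ passed the low-count filter. The fit called 66.7% of those at 1.5-fold, 90.9% at 2-fold and 100% at 4-fold, and 3.41% of calls were false. Few genes differed in the simulation, while 75.1% were called in the data. The largest simulated difference was 4-fold, well under those of Tnr, Tnn and Comp. These rates therefore need not hold for the real comparison.

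The members, the partner and marker lists and the alternatives were chosen with earlier results of these data known. The genes named are the members, Tmpo, up to 5 called genes of each partner list with the smallest p, the nearest protein-coding neighbours and the 4 genes most like Tnr; others are said to be chosen after their values were seen, and marker genes are named as values. Some marker genes are not reported here and are left out of the sums. Mkl1 and Mkl2 were matched as Mrtfa and Mrtfb through RefSeq synonyms. Alternatives were other scalings and filters, DESeq2 1.42.0, limma-voom (limma 3.58.1), a replicate block, other lengths and leaving out each library. Figures were drawn with matplotlib 3.10.9.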

Additional observations from a re-analysis of the deposited data

How the results depend on the processing

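All counts of called members, partner genes and neighbours stayed within 1.5 times their values under every alternative run, and no member changed direction. Over all genes, 5209 to 6406 were called higher and 5139 to 6182 lower under other scalings, filters and tools, and 5352 to 5678 higher and 5327 to 5775 lower when a library was left out. Of the members, 5 were called higher with a minimum of 1 CPM in 3 libraries, which leaves Tnn out of the test, and 6 under the other alternatives. The log2 fold changes of Tnr and Tnn, which rest on 4 WT reads and 1 WT read, ranged from 8.42 to 10.11 and from 5.04 to 7.46 when a library was left out. Those of the other members ranged from −1.54 to −1.43 for Tnc, 1.25 to 1.43 for Tnxb, −0.89 to −0.81 for Thbs1, 2.31 to 2.39 for Thbs2, 0.35 to 0.51 for Thbs3 and 2.98 to 3.41 for Comp.

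Whether the replicate numbers pair the libraries cannot be settled with 3 libraries per group. Deviations from the group means correlated at 0.147, −0.115 and 0.159 for libraries with the same number. For libraries with different numbers they correlated at −0.340 to 0.268. With the replicate number as a block, 5832 genes were called higher and 5865 lower, 6 members were called higher and 2 lower, and 15 regulators were called higher in place of 13, Smad2 and Yap1 being the additions.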
